A study of Mus musculus with 13 samples.

Results

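Intraflagellar transport (IFT) and BBSome genes were followed through 13 RNA sequencing libraries of mouse testis and sorted round spermatids. The set was chosen by name and holds 38 genes: 16 of the IFT-B complex, 6 of the IFT-A complex, 5 motor subunits, 7 BBSome subunits, the BBSome GTPase Arl6 and 3 chaperonin-like genes. All 38 were among the 30479 genes of the deposited table, and all 38 passed the filter on low values (a level of 1 RPM or more in 2 or more libraries, RPM being reads per 1000000 reads of the library) in the fit of each cell type and in that of all 13 libraries.

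IFT is the movement of protein trains along the microtubules of a cilium or flagellum. The IFT-B complex travels outwards with kinesin-2 motors, the IFT-A complex returns with the cytoplasmic dynein-2 motor, and the BBSome is a cargo adaptor that rides on the trains and carries membrane proteins. In spermatids the same proteins work at the growing sperm flagellum and at the manchette, a skirt of microtubules around the elongating nucleus, and male mice without Ift20, Ift27, Ift74, Ift81, Ift140 or Ift172 in the germ line make defective sperm tails.

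The study asked what Wfdc15a, a gene of the WAP four-disulfide core family, does in spermatogenesis. All mice were 25 days old. Whole testis, freed of its capsule, gave 2 wild-type (WT), 1 heterozygous (Het) and 3 knockout (KO) libraries from about 2 ng of total RNA each, and round spermatids gave 2 WT, 2 Het and 3 KO libraries from 100 to 200 cells each. The spermatids were sorted by DNA content with the dye Vybrant DyeCycle Green, and all libraries followed Smart-seq2, which copies whole polyadenylated RNAs and does not mark the strand. The labels name no strain, do not describe the Wfdc15a allele, and are silent on whether each library is a different animal; the p-values therefore describe the spread among these libraries, part of which may be technical.

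The libraries held 7375270 to 20927428 reads, so that 3 reads stood for 0.143 to 0.407 RPM. Wfdc15a itself was at 207 to 212 RPM in WT testis, 48.4 in Het testis and 36.8 to 116 in the testis libraries labelled KO, and at 235 to 267, 65.0 to 71.5 and 48.1 to 97.9 RPM in WT, Het and KO round spermatids, so its level did not separate KO from Het. In both cell types the first principal component (71.6% of the variance for testis, 55.6% for spermatids) put the WT libraries and KO replicate 1 (called set 1 here) on one side and the Het libraries with KO replicates 2 and 3 (set 2) on the other; the labels give no batch, and every WT library is in set 1, so genotype and set overlap in any comparison with WT. The sums of several marker lists moved with the sets. The summed level of 9 stromal and peritubular markers was 25.7 to 29.3 RPM in WT testis, 210 in KO replicate 1 and 924 to 1430 in set 2, and in round spermatids it was 3.39 to 5.67 RPM in set 1 and 485 to 1070 in set 2. Leydig cell markers were at 0.294 to 1.48 RPM in set 1 round spermatids, with Cyp17a1, Hsd3b1, Hsd17b3 and Lhcgr without a read in WT, and at 19.9 to 73.5 in set 2. The 7 elongating spermatid markers had a sum of 1840 to 4060 RPM in WT testis, 1380 in KO replicate 1 and 298 to 445 in set 2. These 7 did not move together, since KO minus WT in testis was negative for 4 and positive for 3. Smcp, 1 of the latter, was at 16.5 and 13.7 RPM in WT testis, 182 in KO replicate 1 and 32.8 to 39.4 in set 2. The 9 round spermatid markers had a sum of 2250 to 2390 RPM in WT round spermatids against 666 to 685 in WT testis. The sum of the 8 spermatocyte markers was also higher in WT round spermatids, at 793 to 838 RPM against 465 to 727 in WT testis. In testis the 10 Sertoli cell markers had a sum of 107 to 124 RPM in WT, 76.5 in KO replicate 1 and 1500 to 1690 in set 2. Of the markers of multiciliated epithelium, which uses the same transport genes, Scgb1a1 and Mcidas had no read in 11 libraries each, and Foxj1 and Deup1, which spermatids also express, had reads in every library. Ccno also had reads in every library, at 0.739 to 9.22 RPM, and Cdhr3 had no read in 4. The part of these markers in the results below was not tested.

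Many ciliary genes carry an X-box, the binding motif of RFX factors, near their start, and many spermatid genes carry a cyclic AMP response element (CRE), the motif bound by CREM. In the promoter sequences of RefSeq (GRCm38.p6, from 250 bases before to 50 bases after a gene's start), 33 of the 38 genes were found. The X-box was searched as GTTNCC and GNNAC with 2 or 3 bases between them and the CRE as TGACGTCA, on both strands, with letters chosen after some of these promoters had been seen. An X-box was present in 7 of the 33 genes and in 3.7% of all 32851 promoters, and the CRE in 3 of the 33 and in 1.79% of all. The windows below show 5 genes whose motif lies before the RefSeq start; capitals mark the motif, written 5′ to 3′ on the gene's strand.
Kif17 X-box, chr4:138262170-138262199, plus strand: tcacggagGTTGCCCAGCAACggcgaacgc
Kif17 CRE, chr4:138262154-138262183, plus strand: attccgtcctgTGACGTCAcggaggttgcc
Ift57 first X-box, chr16:49699199-49699228, plus strand: cgggtctgGTTGCCGTGGTGACcggctgcc
Ift57 CRE, chr16:49699121-49699150, plus strand: ccagcatggcgTGACGTCAcgtaagaatcc
Ttc26 X-box, chr6:38381483-38381512, plus strand: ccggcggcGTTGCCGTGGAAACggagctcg
Bbs7 X-box, chr3:36613489-36613518, minus strand: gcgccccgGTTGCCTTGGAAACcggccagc
Ift22 X-box, chr5:136908109-136908138, plus strand: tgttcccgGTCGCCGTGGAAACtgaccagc

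In Kif17 the windows of the X-box and the CRE overlap. The windows of Kif17 and Ttc26 lie inside the spans of these genes in the deposited table (chr4:138250435-138301967 and chr6:38381469-38427647 of mm10). A match describes letters only. The 7 genes with an X-box did not share a direction in the comparisons below: KO minus WT was positive for 5 and negative for 2 of them in testis, from -1.52 for Ift22 to 2.096 for Kif17 on the log2 scale.

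In WT libraries the transcripts differed widely in level. Per kilobase of mRNA, the highest WT means in round spermatids were those of Ift43, the smallest IFT-A subunit, at 562 RPM per kb, and of Ift74, which with Ift81 forms the tubulin-binding pair of IFT-B, at 252. Ift81 was at 75.8 RPM per kb, below Bbs5 at 109 and Hspb11 at 94.7. Of the large IFT-A subunits, Ift140 was at 51.8, Ift122 at 34.9, Wdr35 at 34.6, Ttc21b at 21.9 and Wdr19 at 13.7 RPM per kb. Among the motors Dync2li1, the light intermediate chain of dynein-2, was at 72.2 RPM per kb, and its heavy chain Dync2h1 at 10.2. Kinesin-2 subunits Kif3a and Kif3b were at 33.0 and 14.9, and the homodimeric kinesin-2 Kif17 at 16.3. BBSome subunits covered more than 2 orders of magnitude per kb, from Bbs5 at 109 through Bbs7 at 37.7 and Bbs9 at 11.6 to Ttc8 at 1.83 and Bbs1 at 0.497. Ttc8 and Bbs1 were also the least precise, at 7.01 and 1.28 RPM and at 5.02 and 0.540 RPM in the WT round spermatid libraries. The chaperonin-like genes Mkks, Bbs10 and Bbs12, which help to assemble the BBSome, were at 3.07, 3.2 and 1.38 RPM per kb. In WT testis Ift43 was again first at 435 RPM per kb, followed by Hspb11 at 206, Ift22 at 144, Ift46 at 112 and Ift74 at 89.5.

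WT round spermatids and WT whole testis differed in 10 of the 38 genes. By limma with Benjamini-Hochberg adjustment over 20085 genes, 8 were higher in round spermatids, where 9.09% of all genes tested were called higher, and 2 were lower, where 2.39% were called lower. The median difference was 0.78 over the 38 genes and 0.20 over all genes tested, on the log2(RPM + 1) scale used for all differences here. In these bulk samples, fewer cells of a type and less RNA per cell cannot be told apart.

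Kif17 differed most. In spermatids this motor carries the transcriptional coactivator of CREM out of the nucleus. Its level was 62.4 and 50.1 RPM in WT round spermatids and 6.40 and 6.78 RPM in WT testis, a difference of 2.91 (SE 0.39, adjusted p = 0.00129). The call held in all 13 alternative analyses of this gene, all of which compared WT libraries, and these are in set 1 only. Wdr19, an IFT-A core subunit, was at 86.7 and 85.4 RPM against 13.02 and 22.6 RPM, a difference of 2.26 (SE 0.65, adjusted p = 0.0453). Traf3ip1, a microtubule-binding IFT-B subunit, was at 32.9 and 38.9 RPM against 7.86 and 7.602 (difference 2.07, adjusted p = 0.00902). Both libraries of round spermatids lay above both of testis for each of these genes. Ift74, at 563 and 514 RPM against 175 and 208, and its partner Ift81, at 245 and 202 RPM against 74.95 and 107, were also called higher (differences 1.49 and 1.30, adjusted p = 0.00169 and 0.0213), as were Ift88, a core IFT-B subunit (1.30, adjusted p = 0.0488) and Arl6 (1.07, adjusted p = 0.0281).

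Ttc30b completed the genes called higher, at 17.6 and 9.86 RPM against 2.60 and 2.34 (difference 2.03, adjusted p = 0.0453). It is a single-exon gene with the near-identical copies Ttc30a1 and Ttc30a2, and how reads shared between them were counted is not given in the sources used here, so its values are uncertain; Ttc30a2 was at 159 to 269 RPM in all libraries but KO replicate 1 of testis, where it was at 123. The genes called lower were Ift20, the IFT-B subunit also found at the Golgi, at 25.1 and 25.5 RPM against 93.8 and 71.6 (difference -1.66, adjusted p = 0.0099), and Ift46, a core IFT-B subunit, at 185 and 192 RPM against 495 and 435 (difference -1.30, adjusted p = 0.0173). Ift27, Ift22 and Mkks had negative differences of -0.95, -1.04 and -1.02 that missed the threshold (adjusted p = 0.111, 0.237 and 0.18). No BBSome subunit was called. The 5 motor subunits all had positive differences, from 0.77 for Dync2li1 to that of Kif17, and 1 passed the test. The spread in this test was taken from all 13 libraries, Het and KO included, and not from WT alone. Dync2li1 had an SE of 1.47, with WT at 51.5 and 63.2 RPM in testis and 97.8 and 97.8 in round spermatids. Its KO replicate 1 in testis was at 0.542 RPM. The split depended on the scaling, with 2 higher and 0 lower after centring, 4 higher and 3 lower after quantile normalization, and 2 higher and 6 lower by voom on the recovered reads. Over all genes the calls were 1825 higher and 480 lower as reported here, 727 and 455 after centring, 1106 and 751 after quantile normalization, and 1086 and 1147 by voom. The count of 10 rested on having both libraries of each group, since it was 2 without WT testis replicate 1, 5 without WT testis replicate 2, and 2 without either WT round spermatid library. All WT libraries are in set 1. In Het, which is in set 2, the genes called kept their direction except Ift88, at 143 and 150 RPM in round spermatids against 205 in testis. Some gaps were narrower there, with Kif17 at 48.9 and 42.1 against 26.2 and Wdr19 at 211 and 198 against 160. Ift46 was at 209 and 199 against 223 in Het, and at 229 and 249 against 195 and 238 in KO replicates 2 and 3.

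**Figure D1:**
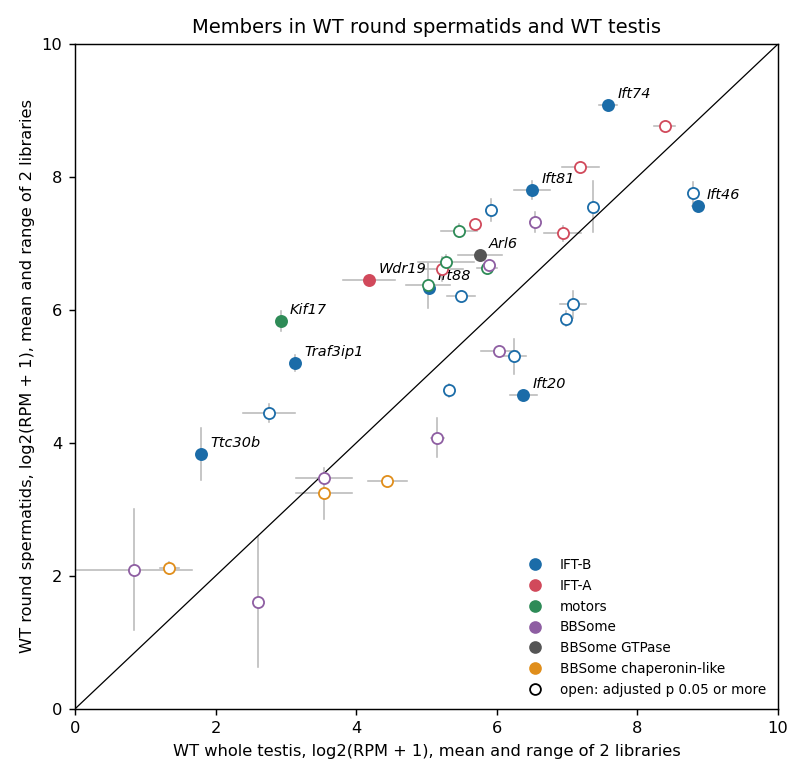
Mean log2(RPM + 1) of the 38 genes in WT whole testis (x axis) and WT round spermatids (y axis), with bars for the range of 2 libraries and colours for the role of the gene; filled points passed the test and the line marks equal levels. Kif17, Wdr19, Traf3ip1 and Ttc30b lie farthest above the line, and Ift20 and Ift46 below it.

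KO and WT testis did not differ by the test in any of the 38 genes, nor in any gene. limma called 0% of 18570 genes at an adjusted p under 0.05, and the smallest adjusted p of the 38 was 0.0719, with 13 of them at an unadjusted p under 0.05, as were 23.6% of all genes tested. KO minus WT was positive for 27 and negative for 11, with a median of 0.96 against 0.63 over all genes tested. The KO libraries lay wholly above the WT libraries for 16 genes and wholly below for 6; of all genes tested, 28.2% lay above and 14.1% below. voom on the recovered reads also called 0 of the 38. Without KO replicate 1 the limma count was 33 of 38, where 65.2% of all 18378 genes tested were called. Scaling moved the centre of all genes: with libraries centred on their median, the median over all genes was -0.31 and that of the 38 was 0.0144, with 19 positive and 19 negative. The gap of 0.328 between the 2 medians cannot move with centring. It was 0.526 after quantile normalization, 0.23 with voom and 0.10 with a gene span correction. Within set 1 the gap was 0.22, and within set 2 it was -0.0491. The genes with the 6 highest and 6 lowest differences among those without overlap kept their sign under centring and quantile normalization.

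**Figure D2:**
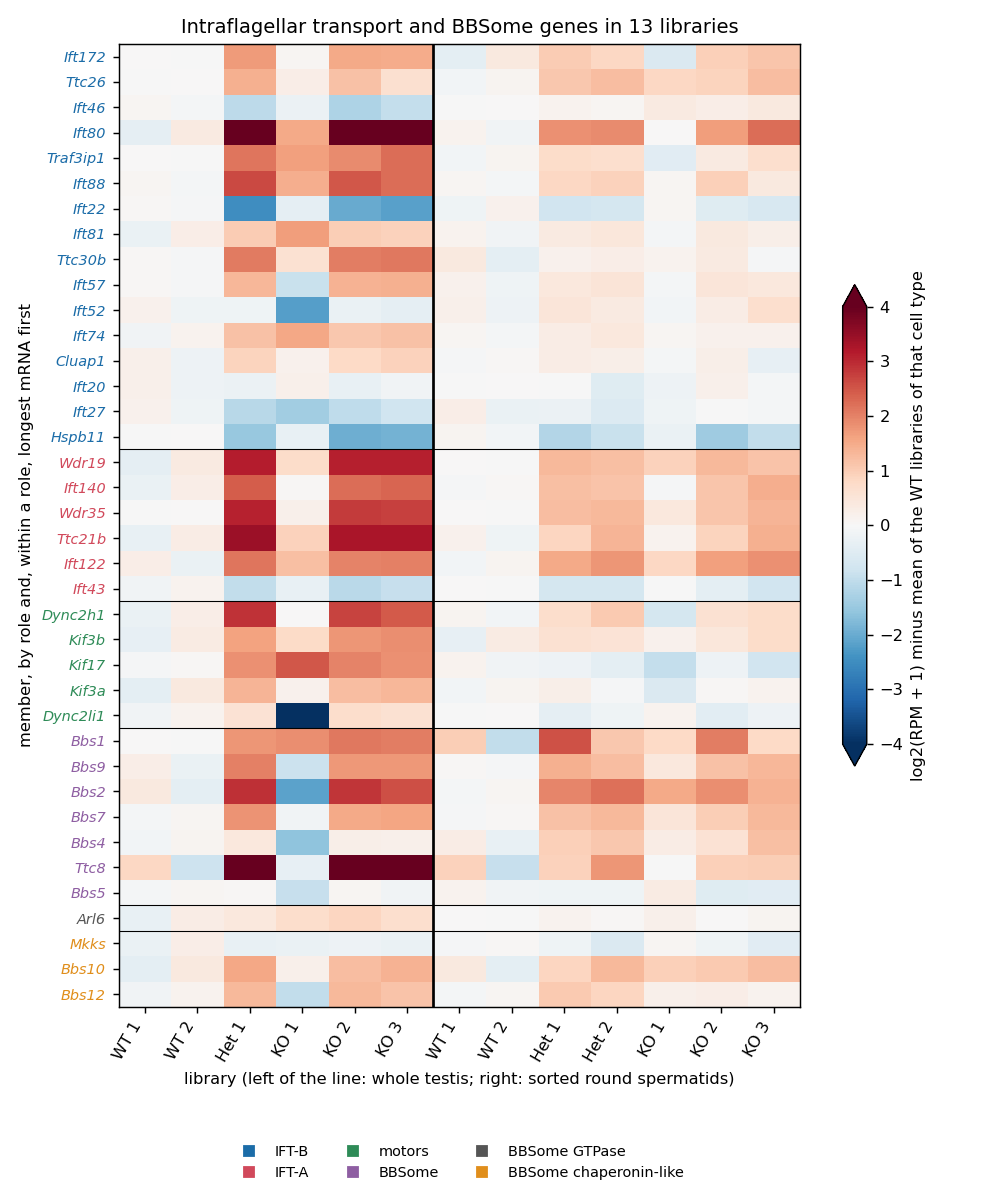
Each cell gives log2(RPM + 1) of a gene (rows, by role and then from the longest to the shortest mRNA) in a library (columns) minus the mean of the WT libraries of the same cell type; colours end at -4 and 4. The Het, KO 2 and KO 3 columns resemble each other in both cell types, and KO 1 is paler, with single dark cells in testis such as Dync2li1.

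IFT-A, which brings trains back to the cell body and admits membrane proteins to the cilium, had a median KO minus WT difference of 1.83 in testis and 0.90 in round spermatids, with 5 of its 6 genes positive and 0 called in both. Wdr19 was at 13.02 and 22.6 RPM in WT testis, 160 in Het and 29.4, 156 and 155 in KO replicates 1, 2 and 3. Ttc21b was at 29.3 and 44.9 RPM in WT testis, 400.3 in Het and 69.3, 361 and 355 in KO. In each gene all KO libraries were above WT, with Het and KO replicates 2 and 3 close together and KO replicate 1 near WT. The differences were 2.32 (SE 0.81, adjusted p = 0.155) and 2.48 (SE 0.77, adjusted p = 0.13). Ift122, with 145 and 101 RPM in WT testis, 540 in Het and 280.0, 486 and 490.2 in KO, had the smallest p of the complex (difference 1.73, SE 0.37, adjusted p = 0.0766). Wdr35 was at 49.8 and 51.5 RPM in WT testis and 59.1, 360.2 and 346 in KO, and Ift140 at 120.1 and 174 in WT and 148, 681 and 732 in KO, so that KO replicate 1 lay within the WT range for Ift140.

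In round spermatids the large IFT-A genes differed in where KO replicate 1 lay. Wdr19 was at 86.7 and 85.4 RPM in WT, 211 and 198 in Het, and 164, 214 and 192 in KO. Ift122 was at 131 and 152 RPM in WT, 405 and 486 in Het, and 253, 440 and 504 in KO. For both genes every Het and KO library lay above WT, and KO replicate 1 was the lowest of them. KO replicate 1 of Ttc21b, at 108 RPM, lay between the WT libraries at 110.1 and 85.8, and that of Ift140, at 273 RPM, was below both WT, at 275 and 294. For Wdr19 and Ift122 the KO minus WT differences were 1.13 (SE 0.19, adjusted p = 0.121) and 1.44 (SE 0.27, adjusted p = 0.121). Ift43 went the other way in both cell types. This small subunit was at 302 and 371 RPM in WT testis, 169 in Het and 275, 157 and 175 in KO, and at 443 and 426 RPM in WT round spermatids, 269 and 264 in Het, and 425.8, 331 and 256 in KO. All KO libraries were below WT, by a fitted -0.77 (adjusted p = 0.252) in testis and -0.39 (adjusted p = 0.307) in round spermatids. In round spermatids, though, KO replicate 1 at 425.76 RPM was almost equal to WT replicate 2 at 425.91.

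The IFT-B genes, which build the outbound train, spread in both directions, with a median KO minus WT difference of 0.67 in testis (10 positive, 6 negative) and 0.18 in round spermatids (11 positive, 5 negative) and 0 called in both. Ift80, a peripheral subunit at chr3:68892499-69004570 of mm10, had the highest difference in testis. Its levels there were 4.23 and 7.73 RPM in WT, 214 in Het, and 18.2, 191 and 177 in KO (difference 3.68, SE 1.06, adjusted p = 0.113). Set 2 libraries were thus more than an order of magnitude above WT, and KO replicate 1 was between. In round spermatids Ift80 was at 23.1 and 19.0 RPM in WT, 77.6 and 80.8 in Het, and 21.4, 68.8 and 101 in KO, so that KO replicate 1 lay inside the WT range (difference 1.31, adjusted p = 0.191).

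Ift88, the subunit disrupted in the oak ridge polycystic kidney mouse, was at 33.5 and 30.2 RPM in WT testis, 205 in Het and 88.1, 182 and 153 in KO. Its KO minus WT difference of 2.05 (SE 0.43) had the smallest p of the 38 genes in testis. Its levels in round spermatids were 84.9 and 74.9 RPM in WT, 143 and 150.5 in Het, and 85.0, 157 and 105 in KO (difference 0.48, adjusted p = 0.302). Ift74 was at 175 and 208 RPM in WT testis, 428 in Het, and 556, 406 and 428 in KO (difference 1.26, SE 0.29, adjusted p = 0.079). Ift81 was at 74.95 and 107 RPM in WT testis, 184 in Het, and 290.3, 178 and 170 in KO (difference 1.19, adjusted p = 0.137). Ift74 and Ift81 thus differed from the genes above in that KO replicate 1 was their highest testis library. Traf3ip1 in testis, at 7.86 and 7.602 RPM in WT, 37.4 in Het and 26.2, 31.4 and 39.8 in KO, had all non-WT libraries together (difference 1.92, adjusted p = 0.0992). Ttc26, needed for motility proteins to enter cilia, had the smallest p of IFT-B in round spermatids, at 24.9 and 28.6 RPM in WT, 57.3 and 63.6 in Het, and 48.3, 50.3 and 64.6 in KO (difference 0.99, SE 0.24, adjusted p = 0.127).

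In testis the KO libraries of 8 IFT-B genes lay wholly above WT and those of 5 wholly below, none past the test. Of all genes tested, 28.2% lay above and 14.1% below. Ift22, a small GTPase-like subunit, was at 460 and 424 RPM in WT testis, 77.9 in Het, and 346, 108 and 96.9 in KO (difference -1.52, SE 0.59, adjusted p = 0.187). Hspb11, which pairs with Ift27, was at 125 and 126 RPM in WT testis, 43.2 in Het, and 102, 31.9 and 33.3 in KO (difference -1.37, SE 0.59, adjusted p = 0.225). KO replicate 1 was the nearest to WT in both genes. In round spermatids Hspb11 was at 62.0 and 53.2 RPM in WT, 24.7 and 30.3 in Het, and 47.5, 20.9 and 28.8 in KO, with no overlap between WT and the other genotypes (difference -0.88, SE 0.34, adjusted p = 0.183). Ift27, the GTPase that lets BBSomes leave the cilium, was at 84.4 and 66.6 RPM in WT testis, 34.3 in Het and 28.1, 36.5 and 42.3 in KO (difference -1.07, adjusted p = 0.19). Its round spermatid libraries overlapped between the genotypes, at 26.1 to 46.3 RPM in all. Ift46 was at 495 and 435 RPM in WT testis, 223 in Het, and 398, 195 and 238 in KO (difference -0.81, adjusted p = 0.253), yet in round spermatids its KO libraries, at 240, 229 and 249 RPM, were above both WT, at 185 and 192, and both Het, at 209 and 199. Ift52 was at 152 and 118 RPM in WT testis, 119 in Het, and 28.3, 111 and 104 in KO, where KO replicate 1 alone stood apart (difference -0.95, adjusted p = 0.394). The values of Ift20 overlapped between genotypes in both cell types, with differences of -0.07 in testis and -0.02 in round spermatids.

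Kif17 was the motor whose KO effect differed between the cell types by a test of that difference. Testis levels were 6.40 and 6.78 RPM in WT, 26.2 in Het, and 41.4, 28.8 and 26.0 in KO. Round spermatid levels were 62.4 and 50.1 RPM in WT, 48.9 and 42.1 in Het, and 28.7, 48.5 and 32.6 in KO. The KO libraries were above WT in testis and below WT in round spermatids, without overlap in either. The fitted difference was 2.096 (SE 0.53, adjusted p = 0.0922) for testis, and for round spermatids it was -0.63 (SE 0.28, adjusted p = 0.228). The KO effect in round spermatids minus that in testis was -2.73 (SE 0.50, adjusted p = 0.027), the 1 call among the 38 genes, where 2.13% of 20085 genes were called. Its direction held in 20 alternative analyses, from -3.42 to -1.70, and the call held in 10 of them. It was lost after centring (adjusted p = 0.283), after quantile normalization (0.21) and with voom (0.109). It was also lost without any 1 of these 7 libraries: WT testis replicate 1 (adjusted p = 0.107) or 2 (0.0665), KO testis replicate 2 (0.0625), WT round spermatid replicate 1 (0.158) or 2 (0.141), and KO round spermatid replicate 1 (0.055) or 3 (0.0611). Over the 38 genes the median of this difference was -0.46, against -0.48 over all genes tested. The 20 alternatives did not include comparisons within a set. For Kif17, KO replicates 2 and 3 minus Het was 0.06 in testis and -0.19 in round spermatids. KO replicate 1 minus WT was 2.48 and -0.94. Het minus WT was 1.84 in testis (1 library, not tested) and -0.30 in round spermatids.

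The other motor subunits had no call in KO minus WT or in the test of its difference between the cell types. Dync2h1 was at 36.0 and 51.6 RPM in WT testis, 326 in Het, and 43.3, 286 and 238 in KO, so that KO replicate 1 was within the WT range (difference 1.72, SE 0.83, adjusted p = 0.27). Dync2li1, its partner, was at 51.5 and 63.2 RPM in WT testis, 85.9 in Het, and 0.542, 92.8 and 88.5 in KO. KO replicate 1 of testis had no read for 49.4% of all genes, against 25.9% to 34% in the other testis libraries, and the part of this in the low value was not tested. The fitted value was -1.31 (SE 1.78, adjusted p = 0.659), and in round spermatids KO replicate 1 was at 107 RPM, the highest of 7. Kif3b was at 25.002 and 39.3 RPM in WT testis, 96.9 in Het, and 54.6, 110.1 and 116 in KO (difference 1.47, adjusted p = 0.145). Its levels in round spermatids were 64.3 and 104 RPM in WT and 91.1, 112 and 136 in KO, which overlapped (difference 0.44, adjusted p = 0.333). Kif3a overlapped between WT and KO in both cell types.

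The BBSome genes had a median KO minus WT difference of 0.98 in testis (5 of 7 positive) and 0.92 in round spermatids (6 of 7 positive) and 0 called in both; of all genes tested, 67.9% and 52% were positive. Bbs2 was at 9.46 and 10.7 RPM in WT round spermatids, 42.2 and 49.4 in Het, and 30.9, 38.9 and 28.2 in KO. All 5 non-WT libraries, KO replicate 1 included, were well above both WT libraries, and the difference of 1.59 (SE 0.27, adjusted p = 0.121) was the highest of the 38 genes in that comparison. In testis Bbs2 was at 14.3 and 7.86 RPM in WT, 87.9 in Het, and 1.63, 82.8 and 67.9 in KO, where KO replicate 1 was below WT (difference 1.09, SE 1.52, adjusted p = 0.667). Bbs7 was at 97.3 and 105 RPM in WT round spermatids, 227 and 252 in Het, and 142, 200.1 and 249 in KO (difference 0.92, SE 0.24, adjusted p = 0.129). Bbs9 was at 42.0 and 39.1 RPM in WT round spermatids, 111 and 95.8 in Het, and 54.7, 91.9 and 104 in KO (difference 0.97, SE 0.28, adjusted p = 0.136). In both genes KO replicate 1 lay between WT and the rest.

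Bbs1 was at 5.15 and 5.005 RPM in WT testis, 19.8 in Het, and 20.9, 25.3 and 24.1 in KO (difference 2.00, SE 0.56, adjusted p = 0.109). Like Kif17 and Traf3ip1, it had KO replicate 1 beside the other non-WT testis libraries. Ttc8 had no read in WT testis replicate 2, where 3 reads would be 0.190 RPM, and 2.17 RPM in replicate 1, 27.2 in Het, and 0.407, 37.5 and 34.3 in KO (difference 2.80, SE 1.60, adjusted p = 0.331). Bbs5, the phosphoinositide-binding subunit with the shortest mRNA of the BBSome, was at 87.5 and 96.7 RPM in WT testis and 48.5, 96.3 and 83.5 in KO, and at 177 and 143 RPM in WT round spermatids and 199.8, 113 and 115 in KO, with overlap in both. Arl6, which recruits the BBSome to membranes, was at 42.7 and 66.1 RPM in WT testis, 72.2 in Het, and 87.7, 96.7 and 85.5 in KO (difference 0.75, adjusted p = 0.285). In round spermatids it stayed between 113 and 130.1 RPM in all 7 libraries.

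Of the chaperonin-like genes, Bbs10 was at 11.3 and 6.23 RPM in WT round spermatids, 16.3 and 22.1 in Het, and 17.1, 18.5 and 21.3 in KO, without overlap (difference 1.07, SE 0.35, adjusted p = 0.15). Bbs12 was at 1.30 and 1.77 RPM in WT testis, 5.18 in Het, and 0.271, 5.18 and 4.62 in KO, with KO replicate 1 lowest (difference 0.48, adjusted p = 0.748). Mkks stayed between 16.8 and 25.3 RPM in all 6 testis libraries and between 6.19 and 10.3 RPM in all 7 of round spermatids.

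**Figure D3:**
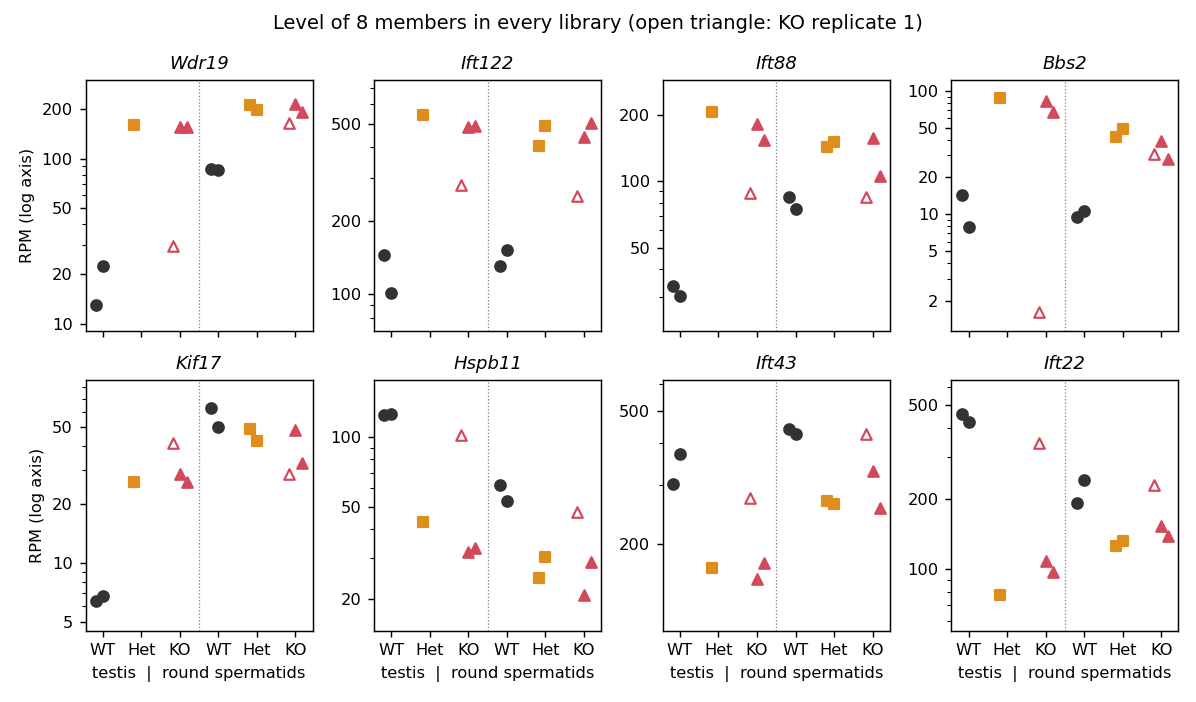
RPM (log axis, its own range in each panel) of 8 genes in every library, by genotype within testis (left of the dotted line) and round spermatids (right); open triangles are KO replicate 1. The filled triangles and the Het squares sit together for Wdr19, Hspb11 and Ift22, the open triangle sits near WT for these genes in testis, and Kif17 in testis has all Het and KO points above WT.

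Across all 38 genes, KO minus WT in round spermatids had a median of 0.28 against 0.03 over all genes tested, with 27 positive and 11 negative differences. limma called 0% of 18075 genes, 13 of the 38 were at an unadjusted p under 0.05 (21.1% of all genes), and voom on the recovered reads also called 0. Without KO replicate 1 limma called 21 of the 38, where 30.8% of all 17921 genes tested were called. The KO libraries lay wholly above WT for 14 genes and wholly below for 3 (Hspb11, Kif17 and Ift43), where 16.6% and 19.4% of all genes tested did so. Het minus WT in round spermatids had a median of 0.64 against 0.23 over all genes, with 29 positive differences, 0 called by limma (0% of all genes; 18 of the 38, and 25.1% of all genes, at an unadjusted p under 0.05), and a smallest adjusted p of 0.0626; voom called 0. Het libraries lay wholly above WT for 27 genes and wholly below for 7, where 40.6% and 23.2% of all genes tested did. Both comparisons use the same WT libraries. With 1 library, Het testis was not tested; it was nearer to KO replicates 2 and 3 than to WT for 37 of the 38 genes (86.6% of all genes tested).

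Within a set of libraries the median KO difference over the 38 genes was near 0, with a wide range for KO replicate 1 in testis. KO replicates 2 and 3 minus Het had a median over the 38 genes of -0.07 in testis (11 positive, 27 negative), with values from -0.51 to 0.39, and of -0.05 in round spermatids (14 positive, 24 negative), from -0.75 to 0.34. KO replicate 1 minus WT had medians of 0.12 in testis, from -5.24 for Dync2li1 to 2.48 for Kif17. In round spermatids its median was 0.09, from -0.94 for Kif17 to 1.53 for Bbs2. Over all genes tested the medians of KO replicate 1 minus WT were lower, at -0.137 in testis and -0.123 in round spermatids. Those of KO replicates 2 and 3 minus Het were -0.0252 and -0.0276. The KO replicate 1 differences were over 1 in size for 13 of the 38 genes in testis and for 1 in round spermatids. limma within set 1, where the single KO library is assumed to vary like WT, called 7 higher and 6 lower of the 37 genes that passed the filter there in testis, with 42.1% of all 14035 genes called, and 2 higher in round spermatids, with 1.26% of all 14710 called. Within set 2 it called 0 of the 38 in both. Of the IFT-A genes in testis, Ift122 was 1.199 higher in KO replicate 1 than in WT and -0.15 in KO replicates 2 and 3 minus Het, Ttc21b was 0.91 and -0.16, and Wdr19 was 0.74 and -0.04. For Kif17 in testis these values were 2.48 and 0.06, and for Bbs1 1.85 and 0.30. In both cell types KO replicate 1 was nearer to WT than to KO replicates 2 and 3 for 26 of the 38 genes, where 62.7% of all genes tested in testis and 62.6% in round spermatids were.

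**Figure D4:**
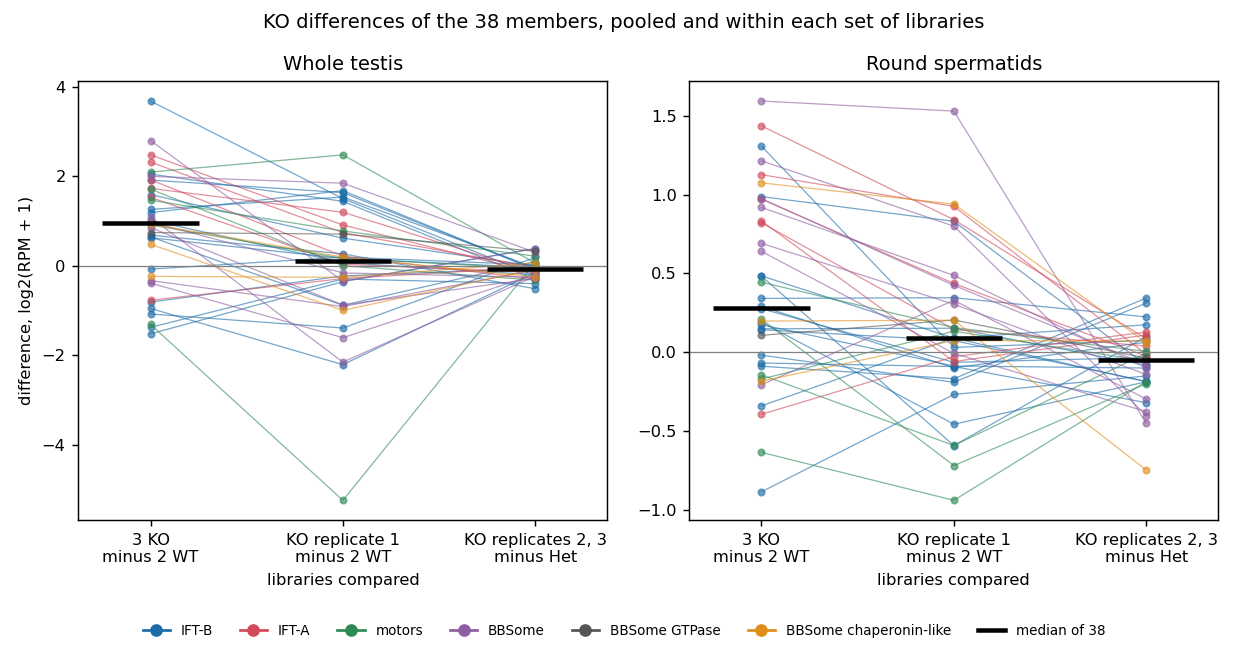
Difference in log2(RPM + 1) of each of the 38 genes (points joined by lines, coloured by role) for all KO minus WT libraries, for KO replicate 1 minus WT, and for KO replicates 2 and 3 minus Het; black bars are medians. The medians go from 0.96 to 0.12 and -0.07 in testis and from 0.28 to 0.09 and -0.05 in round spermatids; the lowest point is Dync2li1.

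Few genes set all KO libraries apart from WT and Het together. In testis Bbs1 and Arl6 were higher in all 3 KO libraries than in any WT or Het library, and Ift52 lower, where 4.47% of all genes tested were higher and 3.96% lower. In round spermatids Ift46 was higher and no gene of the 38 lower, where 1.36% and 4.9% were. The counts of 3 and 1 of 38 are near these shares. For Arl6 in testis the margin was small, with the highest Het or WT value at 72.2 RPM and the lowest KO value at 85.5 RPM.

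Longer transcripts had higher KO minus WT values. Across the 38 genes, the log2 of the mRNA length and the KO minus WT difference had a Pearson r of 0.609 (Spearman rho 0.611) in testis and 0.553 (rho 0.583) in round spermatids; this is a description across genes, which share libraries and are not independent replicates. The 19 shorter mRNAs, from 608 to 3064 nt, had a median difference of 0.63 in testis and 0.149 in round spermatids, and the 19 longer ones, from 3071 to 14264 nt, of 1.72 and 0.484. The shortest 2 are Hspb11 at 608 nt and Ift43 at 773 nt, both with negative differences, while the 5 longer IFT-A genes span 4056 to 6279 nt. Exceptions included Ift22, with 3071 nt and a negative difference, and Dync2h1, the longest at 14264 nt, with 0.21 in round spermatids. Of the 19 longer mRNAs, 3 had negative differences in testis (Ift22, Ift46 and Mkks). In round spermatids 4 did (Ift22, Mkks, Kif17 and Kif3a). Of the 19 shorter ones, 8 were negative in testis and 7 in round spermatids. For KO replicates 2 and 3 minus Het, within set 2, r was -0.157 in testis and -0.0749 in round spermatids, and for KO replicate 1 minus WT it was 0.357 and 0.0891. Between the sets, r for set 2 minus set 1 was 0.511 in testis and 0.682 in round spermatids. These correlations cover the 38 genes only. The part of transcript length, and of the marker shifts given above, in the KO minus WT values was not tested.

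**Figure D5:**
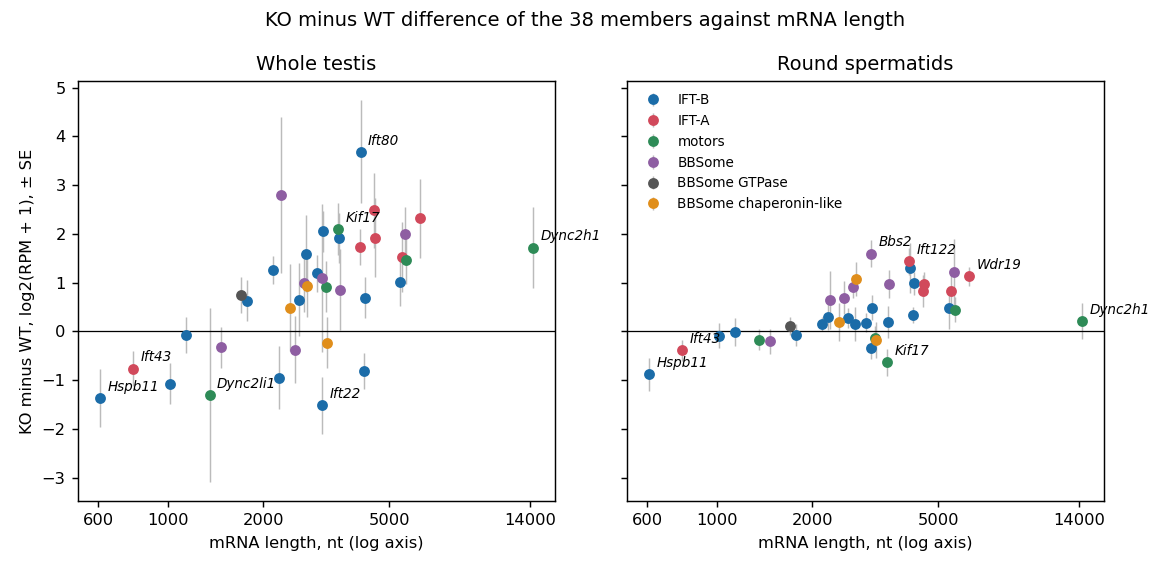
KO minus WT difference in log2(RPM + 1) with its SE (y axis) against mRNA length in nt (x axis, log scale) for the 38 genes in testis and round spermatids, coloured by role. Hspb11 and Ift43 at the short end are below 0 in both panels and most genes at the long end are above it.

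Other genes of the pathway, listed by name apart from the 38, had no call in KO minus WT either. Of 32 further genes of ciliary transport the median difference was -0.36 in testis (14 positive, 18 negative) and 0.05 in round spermatids (16 and 16). Wdr60, a dynein-2 intermediate chain, was at 17.0 and 15.0 RPM in WT testis and 111, 99.6 and 103 in KO (difference 2.64, adjusted p = 0.071), and Kifap3, the third subunit of kinesin-2, at 53.0 and 77.3 RPM in WT and 158, 217 and 228 in KO (1.62, adjusted p = 0.0774). Dynlt1f, one of several near-identical dynein light chain genes whose reads may be shared, was at 1363 and 1432 RPM in WT testis and 578, 217 and 188 in KO (-2.28, adjusted p = 0.0785). In round spermatids Dynll2, also a dynein light chain, was at 83.5 and 61.2 RPM in WT and 39.6, 21.4 and 14.6 in KO (-1.58, adjusted p = 0.127). Mak, a kinase of the ciliary tip, had 0.70 (adjusted p = 0.127) and Wdr34, the other dynein-2 intermediate chain, 0.84 (adjusted p = 0.132).

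The CCT chaperonin, which works with Mkks, Bbs10 and Bbs12, had 9 genes with all differences positive in round spermatids (median 0.49, 9 of 9 wholly above WT, where 16.6% of all genes tested were, 0 called). Tcp1 was at 2867 and 2621 RPM in WT round spermatids and 3975, 3950 and 4172 in KO (difference 0.56, SE 0.13, adjusted p = 0.124), and in testis the CCT median was -0.05. Transition zone and distal appendage genes, which form the gate through which IFT trains pass, had medians of 1.41 in testis (21 of 26 positive) and 0.35 in round spermatids (19 of 26), with Cep290 at 13.2 and 27.0 RPM in WT testis and 160.4, 199 and 184 in KO (difference 3.19, adjusted p = 0.071). Genes of manchette transport and IFT partners in spermatids had medians of 0.80 and 0.06 over 17 genes. Meig1, needed for cargo transport along the manchette, was at 5234 and 4358 RPM in WT round spermatids, 1525 and 1483 in Het, and 3966, 1792 and 1491 in KO (difference -1.12, SE 0.33, adjusted p = 0.138), so that KO replicate 1 was again nearest to WT.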

How the data were processed

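The deposited values are log2 RPM (reads of a gene scaled to a fixed library total) per gene and library, made by the authors; per the submitters' processing notes HISAT2 2.1.0, Trim Galore 0.6.6 and FastQC 0.11.8 were used with build mm10, while the counting program and annotation are not stated in those notes. At least 99.704% of values in each library were whole reads within 0.01 read, with 0.9 read standing for no read; they were turned into RPM with such genes at 0. Groups came from the labels, and 0 other sample columns were present. limma 3.58.1 (R 4.3.3; trend = TRUE) was run on log2(RPM + 1), for genes reaching 1 RPM in 2 or more libraries of the fit, with two-sided p-values adjusted by Benjamini-Hochberg over all genes tested and a threshold of 0.05. KO and Het were compared with WT in a fit per cell type; the WT cell types and the difference of the KO effect came from 1 fit of 13 libraries. This scale understates changes of low genes. The fits were also run on simulated reads, with a spread set in advance and without the 2 sets of libraries. That run cannot show how the fits behave on libraries that fall into sets.

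The genes, the other lists and the sets of libraries were chosen with earlier results of these data known. Values were given in full for up to 6 genes per direction without overlap in each KO comparison, up to 5 per direction between WT cell types, and the smallest p-values of each role; other genes may be named. Gene models and mRNA lengths are from GENCODE M21, in which all 38 genes had the coordinates of the deposited table. One listed kinase appears under its current symbol, Cilk1. No 2 libraries of the same group agreed within sampling noise. Same-numbered libraries of WT and KO did not deviate together (correlations 0.00272 to 0.0456). Alternatives were other pseudocounts, scalings and filters, voom on the recovered reads, library weights, a replicate block, the set as a covariate, within-set values, gene span, and leaving out each library.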

Additional observations from a re-analysis of the deposited data

Results flagged for a closer look

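Kif17 was set aside for a closer look because its KO effect differed between the cell types by a test of that difference. KO minus WT in round spermatids minus KO minus WT in testis was -2.73 (limma adjusted p = 0.027 over 20085 genes), with all 3 KO libraries above WT in testis and all 3 below WT in round spermatids. Over 20 alternatives the value ranged from -3.42 to -1.70 and the adjusted p from 0.00012 to 0.283. In testis KO replicate 1 was 2.48 above WT, and KO replicates 2 and 3 were 0.06 above Het. In round spermatids these differences were -0.94 and -0.19. Such within-set values were not among the 20 alternatives. Groups of at most 3 libraries were too small for the search for outlying samples.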

How the results depend on the processing

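The counts below are of the 38 genes past the threshold, each with the share of all genes tested that was called in brackets, and the medians are over the 38, on the log2 scale. KO minus WT in testis called 0 genes; it called 32 (67.5%) with quality weights for libraries, 17 (37.7%) with a set covariate, 12 (20.7%) in 1 fit of all 13 libraries, 13 (42.1%) within set 1, and 0 to 33 when 1 library was left out, the 33 (65.2%) without KO replicate 1. Its median of 0.96 was 0.0144 with centred libraries, 0.48 with voom, 0.12 with a set covariate, 0.17 within set 1 (over the 37 genes that passed the filter there) and -0.0743 within set 2. KO minus WT in round spermatids called 0 genes; it called 19 (31.6%) with quality weights, 2 (0.492%) with a set covariate, 2 (1.26%) within set 1, and 0 to 21 when 1 library was left out, the 21 (30.8%) without KO replicate 1. Its median of 0.28 was 0.0902 with a set covariate and within set 1, -0.0457 within set 2, and 0.17 to 0.50 when 1 library was left out. Het minus WT in round spermatids called 0 genes, and 2 (2.43%) with centred libraries, 7 (4.63%) with quantile normalization and 23 (26.6%) with quality weights; its median of 0.64 was 0.36 with centred libraries, 0.50 with voom and 0.17 with a set covariate. Round spermatids minus testis in WT called 10 genes (11.5%), and 2 (5.88%) with centred libraries, 27 (31%) with quality weights, and 2 to 5 (3.37% to 5.83%) when 1 library was left out; its median of 0.78 was 0.44 with centred libraries, 0.36 with quantile normalization, 0.34 with voom and 0.70 with a gene span correction. The difference of the KO effect called 1 gene (2.13%), 0 with centred libraries (0%), with quantile normalization (0.00498%) and with voom (1.32%), 19 (34.6%) with quality weights, 14 (26.3%) with a set covariate, and 0 to 18 when 1 library was left out, the 18 (31.1%) without KO testis replicate 1; its median of -0.46 was 0.37, -0.0729, 0.15 and 0.10 with centring, quantile normalization, voom and a set covariate, and -0.90 to -0.23 when 1 library was left out. The cause of these shifts was not tested.

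Of 528 alternatives for single named genes, 409 kept their direction and side of the threshold, 68 gained a call, 40 lost one and 11 changed sign. All 11 were KO replicates 2 and 3 minus Het: in testis Ift80 -0.22, Ttc21b -0.16, Wdr19 -0.0387, Ift88 -0.30, Ift22 0.39 and Ift27 0.19, and in round spermatids Bbs2 -0.45, Wdr19 -0.0131, Ttc26 -0.0820, Bbs9 -0.0776 and Ift43 0.13.

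With the replicate number as a block, KO minus WT called 1 of the 38 genes in testis (0.819% of all genes) and 0 in round spermatids (0%), Het minus WT 11 (8.79%), the WT cell types 16 (13.5%), and the cell type difference of the KO effect 1 (2.94%). The labels give only a number: same-numbered WT libraries of the 2 cell types had a correlation of -0.0233, and those of KO 0.283 to 0.504, so the replicate block may not pair libraries. Low levels limit Ttc8, Bbs12 and Bbs1, which had under 10 RPM in each WT library. The part of depth in their spread was not tested.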
